A study of Mus musculus with 27 samples.

Results

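Alpha-1-antitrypsin and related serpins are 7 genes of the clade A serpin cluster on mouse chromosome 12: Serpina1a, Serpina1b, Serpina1c, Serpina1d, Serpina1e, Serpina3g and Serpina3n. They were chosen by name, with earlier results of these data known. A gene was measured where the deposited table held the probe set of its Entrez gene. This gave 6 of the 7, among 20240 genes tested; Serpina1e was not analysed here. RNA from the right lung of female mice aged 11 weeks was measured on 27 arrays, with 3 mice from each of 9 inbred strains. Spontaneous pulmonary adenomas are labelled as increased in both severity and frequency in A/J, C57BL/6J and DBA/2J. They are labelled as increased in severity but decreased in frequency in C57L/J, C3H/HeJ, BALB/cJ and 129S1/SvlmJ, and as decreased in both in KK/HlJ and MRL/MpJ. The class belongs to the strain, and the lungs were labelled as normal.

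Serpins are protease inhibitors that offer a reactive loop to their target and trap the protease in a covalent complex. Alpha-1-antitrypsin is made mainly by hepatocytes, circulates in plasma and protects the lung from neutrophil elastase. Humans have a single alpha-1-antitrypsin gene, whereas mice have several near-identical copies, and inbred strains are known to differ in how many they carry. Serpina3n is a mouse counterpart of human alpha-1-antichymotrypsin, an acute phase protein, and inhibits granzyme B and leukocyte elastase. Serpina3g inhibits lysosomal cathepsins and is induced by interferon gamma in mouse macrophages.

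In the RefSeq annotation of GRCm38.p6 the 5 Serpina1 members lie at chr12:103728156-103956897, a span of 228.7 kb, and all 7 members within 686.2 kb. All 7 had a promoter entry, from 250 bases before to 50 after the annotated start. The following stretches of 130 bases are shown because the strain patterns of these close copies differed. They are RefSeq sequence of the C57BL/6J reference, on the minus strand and written 5′ to 3′, and sequence of the other strains was not used here. Capitals mark GTTAAT, the core of the binding site of the hepatocyte factor HNF1, found on either strand in 7.1% of 32851 promoter entries.
Serpina1a, chr12:103863581-103863710: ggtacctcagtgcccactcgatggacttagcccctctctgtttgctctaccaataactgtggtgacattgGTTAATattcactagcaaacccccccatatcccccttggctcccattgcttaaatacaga
Serpina1b, chr12:103738156-103738285: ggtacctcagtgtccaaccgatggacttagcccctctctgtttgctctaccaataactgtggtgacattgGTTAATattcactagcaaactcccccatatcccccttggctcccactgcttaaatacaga
Serpina1c, chr12:103904918-103905047: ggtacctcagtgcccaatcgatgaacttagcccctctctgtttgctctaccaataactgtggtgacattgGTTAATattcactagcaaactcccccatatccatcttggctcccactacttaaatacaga
Serpina1d, chr12:103773590-103773719: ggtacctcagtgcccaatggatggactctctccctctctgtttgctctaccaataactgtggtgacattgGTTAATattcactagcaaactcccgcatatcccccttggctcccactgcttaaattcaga
Serpina1e, chr12:103956916-103957045: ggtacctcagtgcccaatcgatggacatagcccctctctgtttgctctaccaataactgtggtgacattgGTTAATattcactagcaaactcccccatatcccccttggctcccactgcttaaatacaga
Each stretch was cut around its motif, which therefore falls at the same place in all 5. From the annotated start, the motif began at -21 in Serpina1a, -26 in Serpina1b, -27 in Serpina1c, -16 in Serpina1d and -78 in Serpina1e. The 5 stretches were 91.5% to 97.7% identical pair by pair. Serpina1b differed from Serpina1e at 3 positions, from Serpina1a at 5, from Serpina1c at 6 and from Serpina1d at 9, all outside the capitals. Counted from 1 at the 5′ end of the stretch, the changes between Serpina1b and Serpina1a were T13C, A17C, C18T, T91C and C116T. These genes are close copies, so a probe set of one may also bind RNA of another, and the table does not allow them to be told apart. Likewise a strain difference in signal cannot be told apart here from a difference in gene copy number or in sequence under the probes, which applies to every strain difference below.

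The Serpina3 genes are on the plus strand and are shown as 110 bases each, because Serpina3g and Serpina3n were high in different strains. Capitals mark in Serpina3g the letters TTCNNNGAA, the core of the gamma-activated site through which interferon gamma acts, found on either strand in 8.3% of promoter entries. In Serpina3n they mark the 9 bases in the same place of the best ungapped alignment.
Serpina3g, chr12:104236064-104236173: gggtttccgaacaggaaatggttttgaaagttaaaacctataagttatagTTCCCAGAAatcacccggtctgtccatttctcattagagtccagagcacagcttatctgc
Serpina3n, chr12:104406535-104406644: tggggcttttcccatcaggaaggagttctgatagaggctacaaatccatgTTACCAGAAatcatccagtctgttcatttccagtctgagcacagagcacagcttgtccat
The stretches shared 60 of 110 bases. Within the capitals they differed by C3A, counted from 1 at the 5′ end of the motif with the Serpina3g base first. The letters TTCNNNGAA were not in the 300-base window of Serpina3n.

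All values are log2 signals as deposited. They compare strains within a probe set and not one gene with another. For 26 of 27 arrays the best correlated array was one of the same strain. Alveolar type II cell markers read as lung, with strain means of their average between 11.14 and 11.57. The table carries no detection calls. Y-linked probe sets, which have no template in females, had strain means from 2.5 (Eif2s3y) to 5.25 (Sry), so member levels in that range may be background and folds against them may be understated. By array number, 8 of the 9 strains were run in blocks of their own, so run order and strain cannot be told apart for them; MRL/MpJ replicate 3 was run after BALB/cJ, apart from replicates 1 and 2. The arrays labelled C57L/J read 11.17 ± 0.09 for H2-Ea against 4.79 ± 0.22 in C57BL/6J (SD, n = 3 each). C57L/J is known to carry the b haplotype of the major histocompatibility complex, which does not express H2-Ea, so these 3 arrays go against their label. They are called the arrays labelled C57L/J, or C57L/J in lists of strains, and the member counts of the F test and the pairs are also given without them.

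Among the 9 strains, 4 of 6 measured members differed by limma's moderated F test at an adjusted p under 0.05: Serpina1b, Serpina1d, Serpina3g and Serpina3n. Over all genes 28.9% passed. In the 36 strain pairs, 3 of 6 members were called at least in 1 pair at an adjusted p under 0.05 and a log2 difference of at least 1, against 4.27% of all genes. They gave 30 calls, 14 for Serpina1b, 10 for Serpina3n and 6 for Serpina3g, while over all genes and pairs 0.655% were called. Without the arrays labelled C57L/J the same counts were 4 members, 3 members and 25 calls. The members were chosen with earlier results of these data known, so these shares do not test them against all genes.

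**Figure D1:**
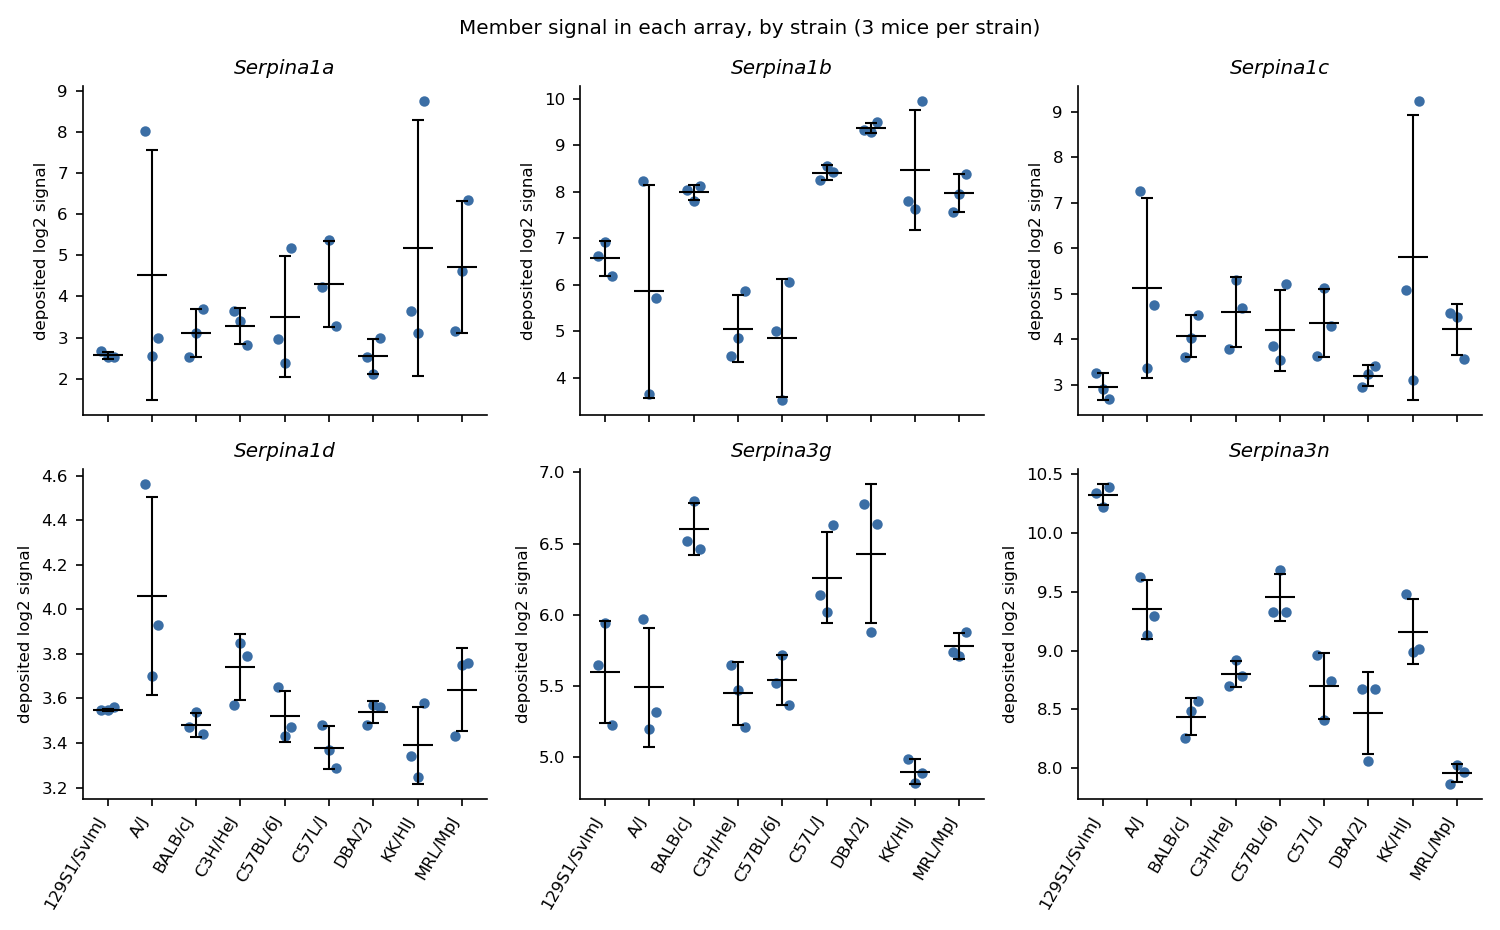
Deposited log2 signal (vertical axes, a scale for each gene) of the 6 measured members by strain (horizontal axes). Points are arrays, bars the mean and SD of 3 mice; Serpina1b ran from 4.86 in C57BL/6J to 9.37 in DBA/2J, Serpina3n was highest in 129S1/SvlmJ and Serpina3g lowest in KK/HlJ, and Serpina1a and Serpina1c each had 1 array far above the other 2 in KK/HlJ and A/J.

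Serpina1b, an alpha-1-antitrypsin gene, spread most among the strains. Its signals were 5.01, 3.52 and 6.05 in C57BL/6J, against 9.33, 9.29 and 9.49 in DBA/2J. The 3 DBA/2J arrays lay within 0.2 of each other, while those of C57BL/6J spread over 2.53, and the groups did not overlap. C57BL/6J minus DBA/2J was -4.51 ± 0.75 (SE), or 22.8-fold, with an adjusted p of 0.00032 by limma.

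Further strains with high Serpina1b signal were KK/HlJ with 7.81, 7.63 and 9.95, the arrays labelled C57L/J with 8.25, 8.56 and 8.42, BALB/cJ with 8.04, 7.81 and 8.13, and MRL/MpJ with 7.57, 7.95 and 8.39. 129S1/SvlmJ had 6.62, 6.92 and 6.18, A/J had 8.22, 3.65 and 5.71, and C3H/HeJ had 4.46, 4.86 and 5.86. Each of the 14 called pairs set one of the 5 strains at or above MRL/MpJ against one of the 4 below it. C57BL/6J and C3H/HeJ were called against all 5, A/J against DBA/2J, KK/HlJ and C57L/J, and 129S1/SvlmJ against DBA/2J. No neighbours in this order differed by the pair test, the smallest adjusted p being 0.267 between MRL/MpJ and 129S1/SvlmJ.

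Against the mean of the other 8 strains, Serpina1b was 2.47 ± 0.56 (SE) higher in DBA/2J (adjusted p = 0.00852), -2.60 ± 0.56 in C57BL/6J (0.00364) and -2.38 ± 0.56 in C3H/HeJ (0.0104), by limma. The share of all genes called in such a contrast was 9.96% in 129S1/SvlmJ, 5.71% in A/J, 5.49% in BALB/cJ, 7.26% in C3H/HeJ, 8.16% in C57BL/6J, 6.64% in C57L/J, 4.82% in DBA/2J, 7.39% in KK/HlJ and 12.4% in MRL/MpJ. The 6 members gave 14 calls in the 9 contrasts: 3 for Serpina1b, 1 for Serpina1d, 4 for Serpina3g and 6 for Serpina3n. The 3 Serpina1b calls kept their direction without any array, but the C57BL/6J call was lost without its replicate 2 (adjusted p = 0.107), the DBA/2J call without its replicate 1 or 3 and the C3H/HeJ call without its replicate 1 or 2.

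**Figure D2:**
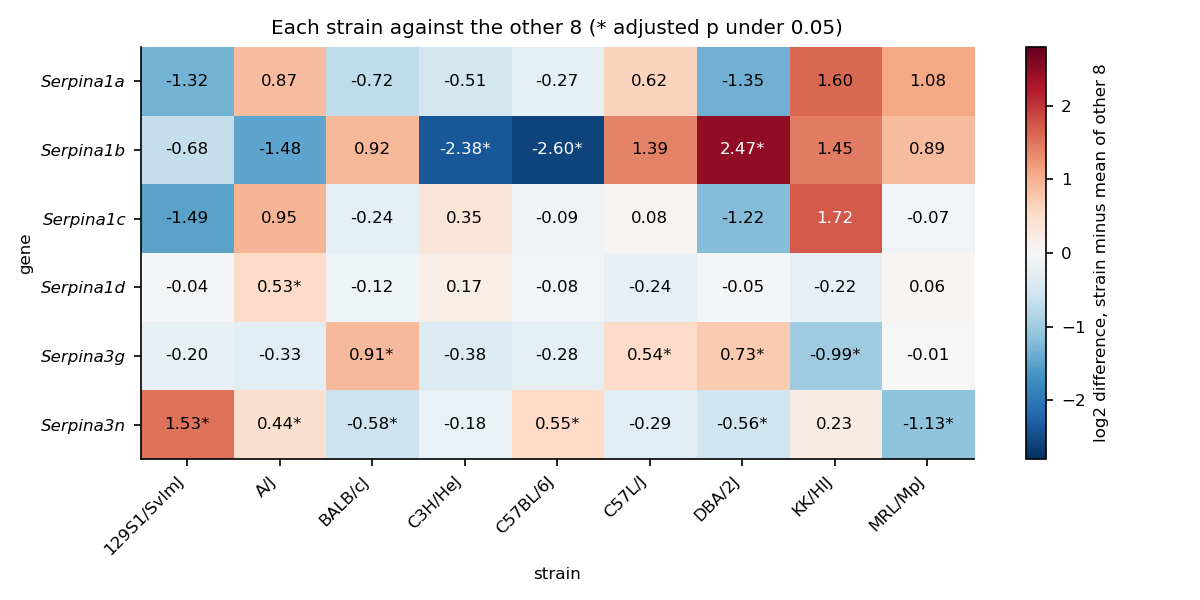
Log2 difference of each strain (columns) from the mean of the other 8 strains for the 6 measured members (rows), red where higher and blue where lower, with an asterisk at an adjusted p under 0.05 by limma. The 14 asterisks fall on 4 genes, with the steepest values for Serpina1b in DBA/2J (2.47) and C57BL/6J (-2.60).

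Serpina1a, the copy annotated between Serpina1d and Serpina1c, did not pass the F test (adjusted p = 0.439). Its arrays read 8.03, 2.55 and 2.98 in A/J, 3.65, 3.1 and 8.75 in KK/HlJ and 3.15, 4.62 and 6.35 in MRL/MpJ. The other 6 strains ranged from 2.12 in DBA/2J to 5.37 in C57L/J. In both A/J and KK/HlJ 1 mouse stood more than 5 log2 units above its 2 strain mates, and these SDs of 3.04 and 3.11 exceeded the widest difference between strain means, 2.63.

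Serpina1c did not pass either (adjusted p = 0.293). It read 7.26, 3.37 and 4.75 in A/J and 5.08, 3.11 and 9.24 in KK/HlJ, and in both strains the high array was the one that was high for Serpina1a. The other strains had means from 2.96 ± 0.30 in 129S1/SvlmJ to 4.60 ± 0.77 in C3H/HeJ (SD, n = 3 each).

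Serpina1d passed the F test (adjusted p = 0.0155) with a narrow range of 0.68 between A/J and the arrays labelled C57L/J. A/J read 4.56, 3.7 and 3.93, against 3.48, 3.37 and 3.29 in those arrays, so the groups did not overlap, and every strain mean lay within the range of the Y-linked probe sets. Its difference in A/J from the other 8 was 0.53 ± 0.11 (SE, adjusted p = 0.00292, limma). Without A/J replicate 1 the Serpina1d difference was 0.28, with an adjusted p of 0.0996.

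Deviations from the strain mean correlated at 0.62 to 0.82 in the 6 pairs of the 4 Serpina1 members over 27 arrays. Over the 9 strain means Serpina1b correlated at 0.10 with Serpina1a, -0.12 with Serpina1c and -0.52 with Serpina1d, and its deviations at 0.82, 0.78 and 0.79. Serpina1a and Serpina1c correlated at 0.85 over strain means and at 0.80 in deviations. These values are descriptions, and the genes share arrays.

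Hepatocyte markers were high in the arrays with the highest Serpina1a signal. The mean of 15 such markers was 6.8 in KK/HlJ replicate 3, against 5.08 and 4.85 in the other KK/HlJ arrays, and 6.02 in A/J replicate 1, against 4.93 and 5.35. All 15 markers in KK/HlJ replicate 3 and 13 of 15 in A/J replicate 1 exceeded both strain mates. Alb, the albumin gene, showed the widest gap, 4.15 and 3.01 log2 units above the mean of the strain mates. Relative to the mean of the same mates, Serpina1a was 41.3-fold higher in KK/HlJ replicate 3 and 38.2-fold higher in A/J replicate 1, and Serpina1c was 35.3-fold and 9.2-fold higher. In MRL/MpJ replicate 3, where 13 of 15 markers also exceeded both mates (median difference 0.21), Serpina1a was 5.5-fold higher than the mean of its mates but Serpina1c stood at 0.5-fold. The median difference over all genes was -0.051 in KK/HlJ replicate 3 and 0.009 in A/J replicate 1. Where the hepatocyte marker RNA of these lung samples came from was not tested. The number of cells of a type, RNA per cell and RNA from outside the lung cannot be told apart here.

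Over the 27 arrays Serpina1c followed the hepatocyte mean with a Pearson r of 0.88 and a Spearman rho of 0.72, and Serpina1a with 0.86 and 0.66. Permutation p-values, two-sided and adjusted over the 6 members, were 3e-05 for both r values, from a raw p of 1e-05, the smallest that 100000 permutations can give. They were 0.00018 for the rho of Serpina1c and 0.00069 for that of Serpina1a. The permutations shuffled all 27 arrays freely and did not keep strain mates together. These p-values therefore treat the mice of a strain as independent, which they are not. Without KK/HlJ replicate 3 and A/J replicate 1, the 2 arrays farthest from the median, r was 0.55 for Serpina1c and 0.63 for Serpina1a. Serpina1b had an r of 0.37 (adjusted p = 0.0755) and Serpina1d of 0.42 (0.0755), by the same permutation test. Within strains, as deviations from the strain mean, r was 0.91 for Serpina1c, 0.86 for Serpina1a, 0.77 for Serpina1b and 0.69 for Serpina1d. Serpina3g and Serpina3n had pooled r values of -0.15 and -0.08.

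**Figure D3:**
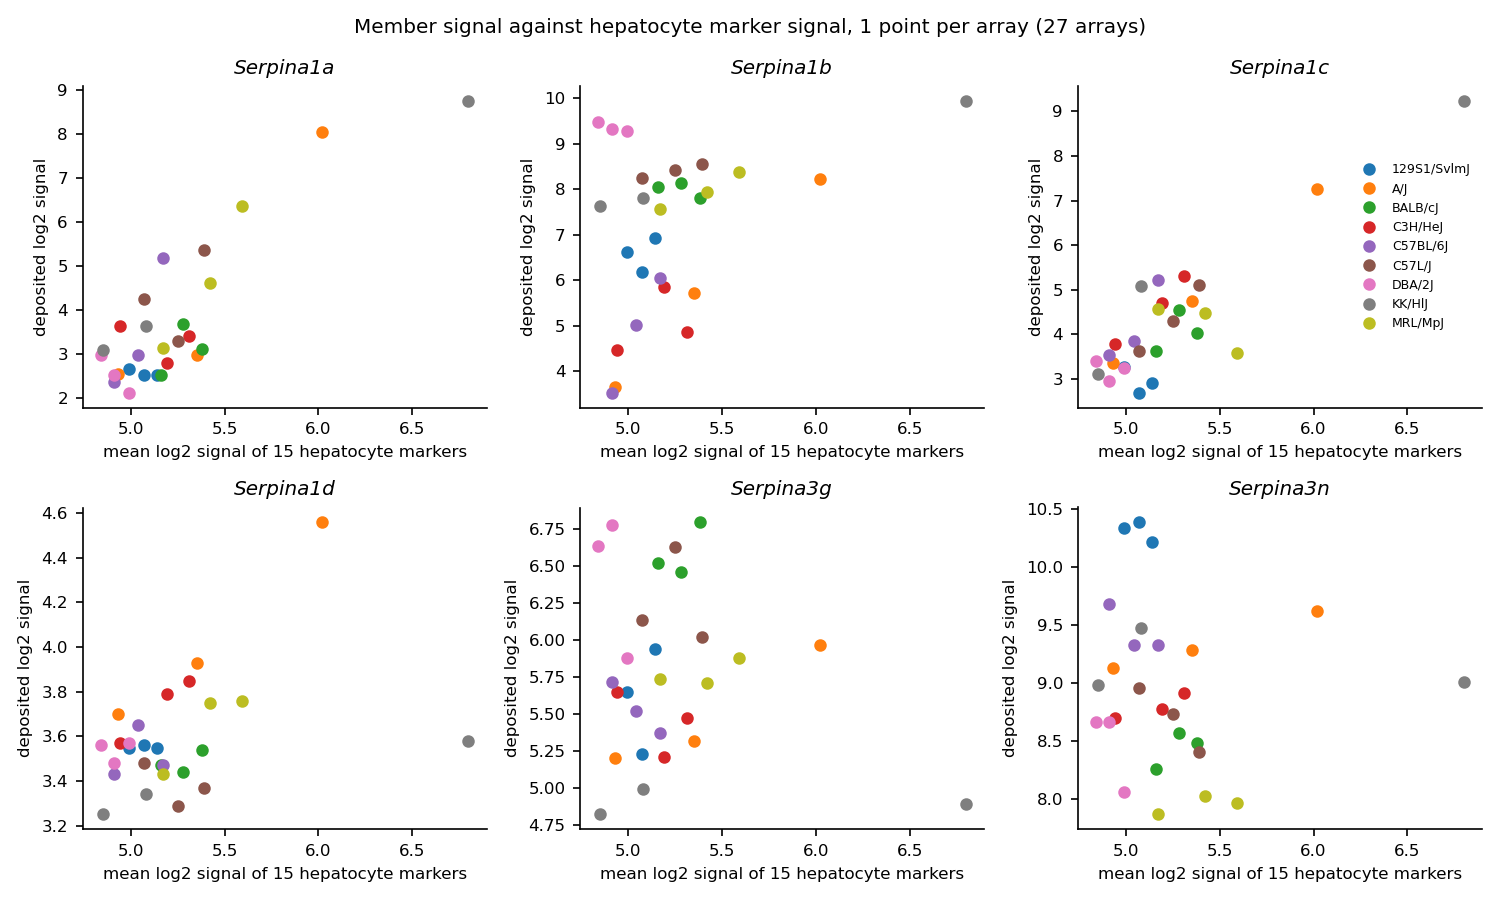
Deposited log2 signal of each measured member (vertical axes) against the mean log2 signal of 15 hepatocyte markers (horizontal axes), 1 point for each of 27 arrays, coloured by strain. Serpina1a and Serpina1c rise with the markers up to KK/HlJ replicate 3 at 6.8, whereas the 3 DBA/2J arrays combine the highest strain mean of Serpina1b with marker means of 4.84 to 4.99.

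Serpina1b was also fitted without KK/HlJ replicate 3 and A/J replicate 1, which were picked after values were seen. Each was also the highest Serpina1b array of its strain (9.95 and 8.22), so leaving them out narrows the spread within strains. DBA/2J, with the highest Serpina1b mean, had hepatocyte means of 4.84 to 4.99. With both arrays left out, the F test of Serpina1b gave an adjusted p of 5.91e-07 and 19 pairs were called, and with the hepatocyte mean as a covariate the adjusted p was 6.11e-07 with 21 pairs called. With both arrays left out, the differences from the other 8 were 2.71 in DBA/2J, -2.36 in C57BL/6J and -2.14 in C3H/HeJ. The A/J difference was then -2.56 (adjusted p = 0.0011, limma), against -1.48 with all arrays, and rested on replicates 2 and 3 at 3.65 and 5.71. A/J, C57L/J and MRL/MpJ joined the called strains. With both arrays left out Serpina1a was called in 2 pairs, 129S1/SvlmJ against MRL/MpJ (-2.13) and DBA/2J against MRL/MpJ (-2.16), and Serpina1c in 1, 129S1/SvlmJ against C3H/HeJ (-1.64, adjusted p = 0.0494). The F tests of Serpina1a and Serpina1c still gave adjusted p-values of 0.114 and 0.158, and with the covariate of 0.552 and 0.0784.

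By likeness over the 27 arrays, Serpina1a and Serpina1c were closest to genes of liver metabolism and plasma. For Serpina1a these were Hpd, a tyrosine catabolism enzyme (r = 0.92), Ahsg, which encodes fetuin-A (0.90), and Akr1c6, an aldo-keto reductase (0.88). For Serpina1c they were Hpd (0.89), Akr1c6 (0.88) and Alb (0.87). Serpina1b was closest to Bdkrb2, the bradykinin receptor (0.77), Pla2g7, which degrades platelet-activating factor (0.76), and Ctse, an aspartic protease (0.74). Within strains, as deviations from the strain mean, these 3 had r values of 0.45, 0.11 and -0.20 with Serpina1b, whereas those closest to Serpina1a and Serpina1c kept 0.88 to 0.91. Serpina1d was closest to Rasd2 (0.68), Proz, the plasma protein Z (0.66), and Trub1 (0.65), with 0.39, 0.25 and 0.61 as deviations. The genes running most opposite were Sbspon for Serpina1a (-0.74) and Serpina1c (-0.67), Cryzl2 for Serpina1b (-0.74) and Cd300lb for Serpina1d (-0.71). As deviations these r values were -0.71, -0.67, -0.44 and -0.34.

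Serpina3n had the smallest p of the members, with an F test adjusted p of 6.23e-09. It read 10.34, 10.22 and 10.39 in 129S1/SvlmJ, against 7.87, 8.03 and 7.97 in MRL/MpJ. All 129S1/SvlmJ arrays lay above and all MRL/MpJ arrays below those of the other strains; the nearest to MRL/MpJ was in DBA/2J, with 8.67, 8.06 and 8.67. 129S1/SvlmJ minus MRL/MpJ was 2.36 ± 0.17 (SE), or 5.13-fold (adjusted p = 9.9e-10, limma).

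The remaining Serpina3n arrays ran from 9.33 to 9.68 in C57BL/6J, 9.13 to 9.62 in A/J, 8.99 to 9.48 in KK/HlJ, 8.7 to 8.92 in C3H/HeJ, 8.41 to 8.96 in C57L/J and 8.26 to 8.57 in BALB/cJ. 129S1/SvlmJ was called against 6 strains and MRL/MpJ against 4, including the pair of both, and the remaining call was BALB/cJ against C57BL/6J (-1.01, adjusted p = 0.000266, limma). 129S1/SvlmJ stood 0.87 above C57BL/6J (adjusted p = 0.00114, limma), which is below the minimum difference of 1. Other neighbours in the order did not differ by the pair test.

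Against the other 8 strains Serpina3n was 1.53 ± 0.12 (SE) higher in 129S1/SvlmJ (adjusted p = 1.32e-08), 0.55 in C57BL/6J (0.00569) and 0.44 in A/J (0.0364), and -1.13 in MRL/MpJ (2.11e-06), -0.58 in BALB/cJ (0.00483) and -0.56 in DBA/2J (0.00778), by limma. The A/J call was lost without A/J replicate 1, at 0.30 with an adjusted p of 0.352. Its closest genes were Elovl7, a fatty acid elongase (r = 0.85), Polr2f, an RNA polymerase subunit (0.78), and St6galnac2, a sialyltransferase (0.77), and the most opposed was the lectin gene Clec4g (-0.83). As deviations from the strain mean these r values were only 0.27, 0.29, -0.20 and -0.19.

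Mesothelial markers were highest in 129S1/SvlmJ, where 6 of 9 were called higher and 0 lower, against 9.96% of all genes called in either direction. Their average ran from 7.8 to 8.26 in its arrays, against strain means of 7.28 to 7.67 in the others. Upk1b, a uroplakin, averaged 9.37 ± 0.11 there (adjusted p = 1.84e-08 against the other 8, limma) and 9.26 ± 0.02 in C57BL/6J (SD, n = 3 each), with means of 7.26 to 7.95 in the other strains. In C57BL/6J, the second highest for Serpina3n, only 1 of 9 markers was higher and 0 lower, against 4.06% of all genes higher. The average of the markers was next highest in DBA/2J (7.67), where Serpina3n was called lower. In MRL/MpJ, the lowest for Serpina3n, 0 were higher and 1 lower, with 12.4% of all genes called in either direction. Over the 27 arrays Serpina3n had an r of 0.71 with Chil3 and 0.68 with Marco among 11 alveolar macrophage markers, the others lying between -0.08 and 0.39. The part of these cells in the Serpina3n differences was not tested.

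Serpina3g passed the F test with an adjusted p of 2.46e-05. It read 6.52, 6.8 and 6.46 in BALB/cJ, 6.78, 5.88 and 6.64 in DBA/2J and 6.14, 6.02 and 6.63 in the arrays labelled C57L/J, against 4.99, 4.82 and 4.89 in KK/HlJ. The KK/HlJ arrays lay below every array of the other strains. BALB/cJ exceeded KK/HlJ by 1.69 ± 0.22 (SE), or 3.24-fold (adjusted p = 9.93e-06, limma).

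MRL/MpJ had Serpina3g signals of 5.74, 5.71 and 5.88, 129S1/SvlmJ of 5.65, 5.94 and 5.23, C57BL/6J of 5.52, 5.72 and 5.37, A/J of 5.97, 5.2 and 5.32 and C3H/HeJ of 5.65, 5.47 and 5.21. Neighbours in the order of these 5 strains overlapped. Against the other 8, Serpina3g was 0.91 ± 0.16 (SE) higher in BALB/cJ (adjusted p = 0.000938), 0.73 in DBA/2J (0.00763) and 0.54 in the arrays labelled C57L/J (0.0483), and -0.99 in KK/HlJ (0.000227), by limma. The C57L/J call was lost in 17 of 27 fits without 1 array, and the DBA/2J call without its replicate 1 or 3. Its closest genes were Leprot (r = 0.79), Pcdhb9, a protocadherin (0.78), and Unc45b, a myosin chaperone (0.75), with 0.56, 0.58 and 0.15 as deviations from the strain mean.

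Siglecf, a lectin of alveolar macrophages and eosinophils, ran most opposite to Serpina3g (r = -0.81, and -0.39 as deviations from the strain mean). The other measured alveolar macrophage markers had r values from -0.73 (Marco) to -0.18 (Fabp1). In KK/HlJ, the strain lowest for Serpina3g, 5 of 11 alveolar macrophage markers were higher than in the other 8 strains and 0 lower, where 4.56% of all genes were higher. In BALB/cJ, the highest, 7 of 11 were lower and 0 higher, where 3.01% of all genes were lower. DBA/2J and the arrays labelled C57L/J, also high for Serpina3g, had 3 and 4 lower and 0 higher. In A/J 7 markers were higher and 1 lower, and in C3H/HeJ 5 and 1, with Serpina3g not called (-0.33 and -0.38). In MRL/MpJ 4 were lower and 0 higher, with Serpina3g at -0.005. Called in either direction were 4.82% of all genes in DBA/2J, 6.64% in C57L/J, 5.71% in A/J, 7.26% in C3H/HeJ and 12.4% in MRL/MpJ. Marco, a scavenger receptor, was 0.92 higher in KK/HlJ (adjusted p = 9.38e-05, limma) and -1.05 in BALB/cJ (3.7e-05). Chil3, a chitinase-like protein, was 1.78 higher in KK/HlJ (1.19e-08) and -1.05 in BALB/cJ (6.55e-05). The average of these markers in KK/HlJ ran from 8.96 to 9.15. The part of macrophage content in the Serpina3g differences was not tested.

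Interferon gamma targets were set beside Serpina3g because that cytokine induces it. All 16 measured targets passed the F test, against 28.9% of all genes. In 129S1/SvlmJ 12 of 16 were lower, against 6.42% of all genes, in A/J 6 of 16 against 3.75%, and in C57BL/6J 8 of 16 were higher against 4.06%. Examples in 129S1/SvlmJ were Gbp4, a guanylate-binding protein, at -2.17 (adjusted p = 7.54e-08, limma), and Psmb8, an immunoproteasome subunit, at -0.54 (3.77e-06). Serpina3g itself was not called in these strains, with differences of -0.20 in 129S1/SvlmJ, -0.33 in A/J and -0.28 in C57BL/6J. In KK/HlJ, where Serpina3g was lowest, 2 targets were higher and 0 lower, against 4.56% of all genes higher. In DBA/2J, where Serpina3g was called higher, 2 targets were higher and 0 lower (Gbp2 at 0.60 and Ciita at 0.40), against 2.88% of all genes higher. The arrays labelled C57L/J, also called higher for Serpina3g, had 2 higher and 0 lower (Cxcl9 at 0.78 and Psmb8 at 0.30). There 6.64% of all genes were called in either direction. In BALB/cJ, the third such strain, 0 targets were higher and 1 lower (Psmb8 at -0.27), against 3.01% of all genes lower. Gbp2, Ciita and Cxcl9 were named after their values were seen.

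Acute phase proteins were set beside Serpina3n. Of 19 measured, 8 passed the F test (42.1%, against 28.9% of all genes). In 129S1/SvlmJ, where Serpina3n was highest, 0 were higher and 1 was lower, against 6.42% of all genes lower: Itih4 at -0.41 (adjusted p = 0.000525, limma). In DBA/2J, where Serpina3n was lower, 4 were higher, against 2.88% of all genes, and 0 lower. These were Orm3, an orosomucoid, at 1.69 (adjusted p = 3.05e-10, limma), Saa3, a serum amyloid A, at 0.63 (0.0481), Cp, ceruloplasmin, at 0.28 (0.00254) and Hp, haptoglobin, at 0.28 (0.0161). In C57BL/6J, where Serpina3n was higher, 3 were higher and 1 lower, and in A/J 1 and 1. Of all genes 8.16% and 5.71% were called there in either direction. In MRL/MpJ, where Serpina3n was lower, 1 was higher and 2 lower, and in BALB/cJ 0 and 3. There 12.4% and 5.49% of all genes were called in either direction. Called with the opposite sign to Serpina3n were Orm3 in C57BL/6J (-0.53), Cfb in A/J (-0.43) and Itih3 in MRL/MpJ (0.32). Lcn2, an iron-siderophore binder, and Itih4 had the same signs as Serpina3n in C57BL/6J and MRL/MpJ. Both had the opposite sign in 129S1/SvlmJ, where Lcn2 was at -0.25 (adjusted p = 0.0928, limma). Lcn2 was 0.65 higher in C57BL/6J (4.19e-05) and -0.67 in MRL/MpJ (4.34e-05), and Itih4 0.51 in C57BL/6J (3.63e-05) and -0.70 in MRL/MpJ (7.57e-07), by limma. Of 15 regulators of the acute phase response, 6 passed the F test (40%, against 28.9% of all genes), led by the transcription factor Cebpd (adjusted p = 0.000267).

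Of 14 target proteases, 7 passed the F test (50%, against 28.9% of all genes). Neutrophil proteases that alpha-1-antitrypsin and its relatives inhibit were not among them: Elane, neutrophil elastase, had an adjusted p of 0.558, Prtn3, proteinase 3, of 0.231, and Ctsg, cathepsin G, of 0.327. Their highest strain means of 4.63, 5.27 and 4.12 lay in or just above the range of the Y-linked probe sets. The lysosomal cathepsins Ctsk (4.08e-08), Ctss (0.000149) and Ctsh (0.000682) passed, as did Gzmb, granzyme B (0.00259), with a mean of 5.05 ± 0.35 in A/J and 5.83 ± 0.17 in C57BL/6J (SD, n = 3 each). Mmp12, macrophage elastase, was 0.69 higher in DBA/2J and -1.07 in C3H/HeJ, and Ctsk, a collagen-cleaving cathepsin, was 0.97 higher in KK/HlJ and -0.54 in MRL/MpJ, with adjusted p-values of at most 0.0012 by limma. Of 11 other protease inhibitors, 6 passed (54.5%), led by Wfdc2 (5.2e-10). Of 14 genes of secretory quality control, which handles misfolded alpha-1-antitrypsin, 3 passed (Os9, Edem2 and Hspa5), which is 21.4%, below the 28.9% of all genes.

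Along the chromosome, the members other than Serpina1d had wider strain ranges than any other measured gene of the cluster, 1.69 to 4.51. Among them Serpina1a (2.63) and Serpina1c (2.85) did not pass the F test. Their highest strain means, both in KK/HlJ, rest on replicate 3 at 8.75 and 9.24. Of the 13 other measured genes of the cluster 4 passed the F test (Serpina9, Serpina12, Serpina5 and Serpina3f), a share near the 28.9% of all genes, and their ranges between the highest and lowest strain mean ran from 0.25 for Serpina16 to 1.29 for Serpina3i. Serpina3f, the gene next to Serpina3g, was -0.62 in MRL/MpJ (adjusted p = 0.0125, limma), with its highest mean, 6.96 ± 0.28 (SD, n = 3), in KK/HlJ, where Serpina3g was lowest. Of 6 flanking genes only Ppp4r4 passed, with a range of 0.61. Serpina1f, the measured gene next to Serpina1b, had a range of 0.44 and did not pass (adjusted p = 0.126).

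**Figure D4:**
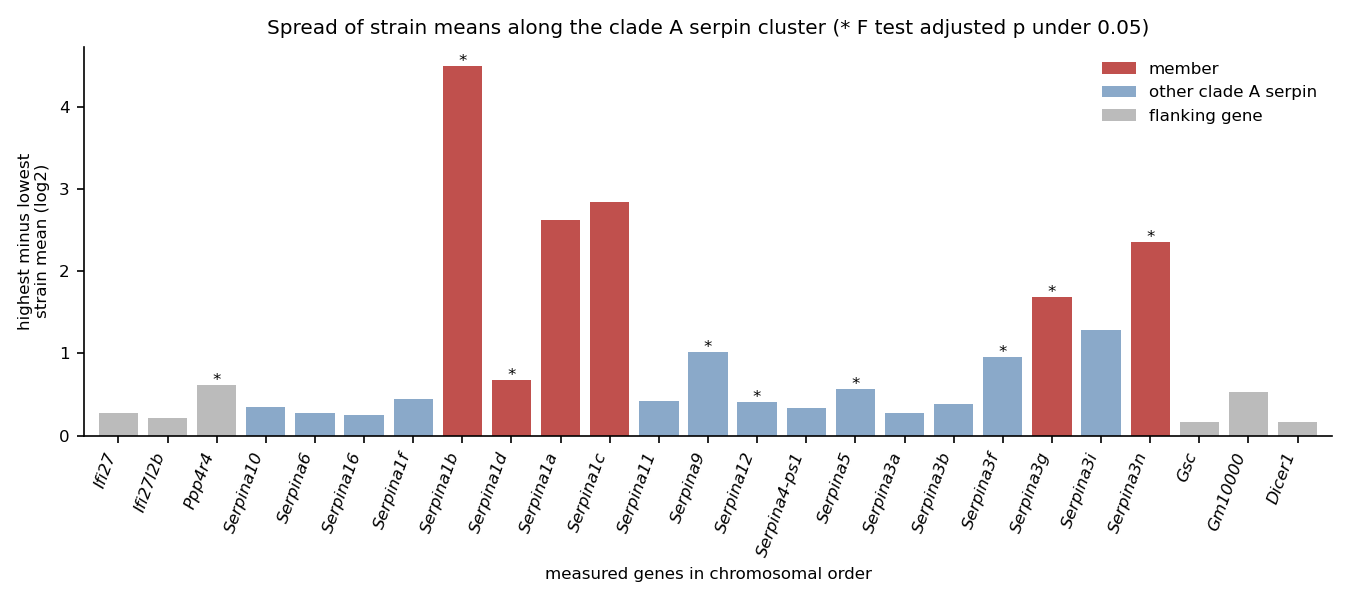
Highest minus lowest strain mean (log2, bars from 0) of the measured genes of the cluster and of 3 genes on either side, in chromosomal order and without their distances, with an asterisk at an F test adjusted p under 0.05. Serpina1b reaches 4.51, while the 13 other clade A serpins lie between 0.25 and 1.29.

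Adenoma class was compared over strain means, as the study set strain groups of increased and decreased severity and frequency against each other. No member passed at an adjusted p under 0.05 in any of 3 comparisons by limma, whether fitted on strain means or with strain as a random block. Over all genes 0.00988% were called for severity, 0% for frequency and 0.00494% for increased in both against decreased in both. At an unadjusted p under 0.05 the members gave 1, 0 and 1, and all genes 1425, 1558 and 1745.

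That member was Serpina1a. Its mean was 3.41 ± 0.77 in the 7 strains of increased severity and 4.94 ± 0.33 in the 2 of decreased severity (SD over strains), a difference of -1.53 ± 0.49 (SE; unadjusted p = 0.0107, adjusted p = 0.622, limma over all genes). Strain means ran from 2.54 to 4.52 where severity was increased and were 4.71 in MRL/MpJ and 5.17 in KK/HlJ, so the classes did not overlap. How many of all genes had classes without overlap was not counted. The KK/HlJ mean rests on replicate 3 at 8.75, the other arrays reading 3.65 and 3.1. Both lie below the C57L/J mean of 4.3, so the classes overlap without that array. The difference was -0.64 without KK/HlJ replicate 3 and -0.89 without both arrays of high hepatocyte signal. For increased in both against decreased in both it was -1.41 ± 0.58 (SE; adjusted p = 0.555).

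The other members had overlapping classes in all 3 comparisons. For severity, the differences were -1.34 ± 1.09 for Serpina1b, -0.94 ± 0.55 for Serpina1c, 0.09 ± 0.15 for Serpina1d, 0.57 ± 0.35 for Serpina3g and 0.52 ± 0.47 for Serpina3n (SE, adjusted p of at least 0.765). For frequency, the 3 increased strains included both the highest and the lowest Serpina1b mean, DBA/2J at 9.37 and C57BL/6J at 4.86, and the difference was -0.71 ± 1.01 (SE; adjusted p = 0.858, limma). The 2 strains decreased in both stood apart from each other, with Serpina3n at 9.16 in KK/HlJ and 7.96 in MRL/MpJ and Serpina3g at 4.90 and 5.78.

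**Figure D5:**
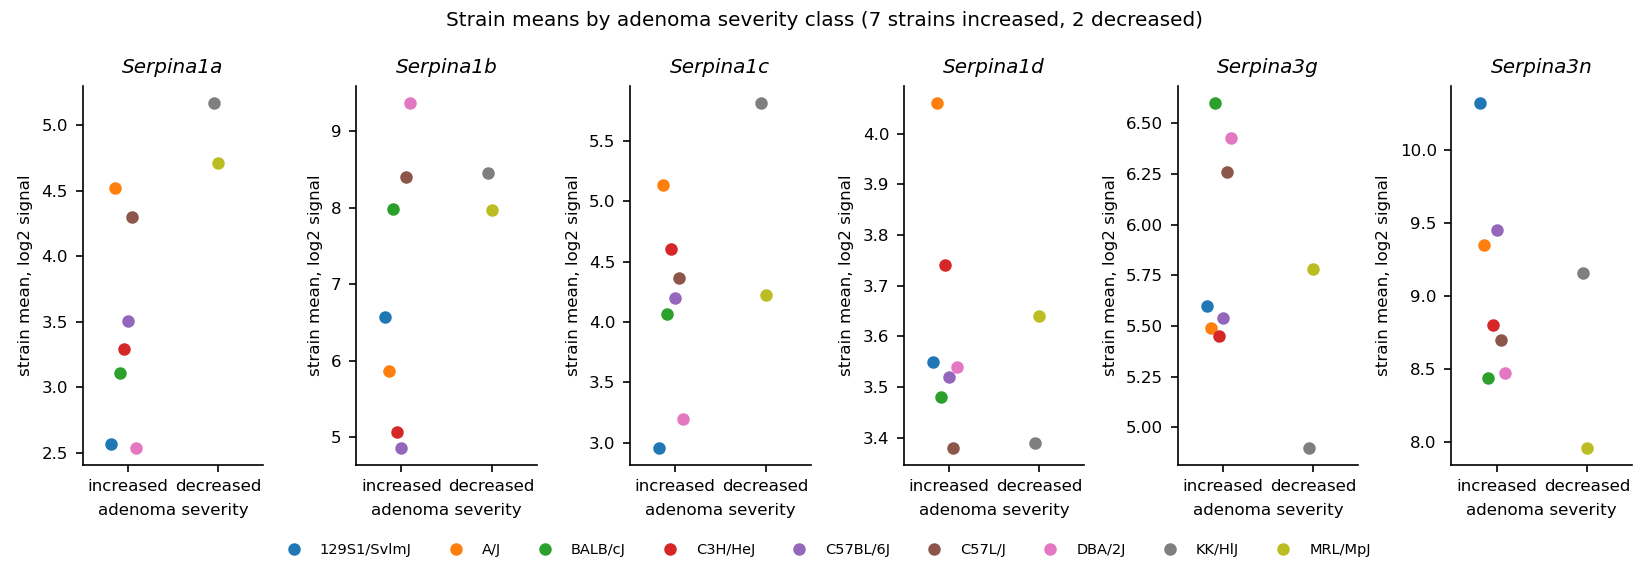
Strain mean log2 signal (vertical axes) of each measured member in the 7 strains labelled with increased and the 2 with decreased adenoma severity (horizontal axes), 1 point per strain. The classes overlap for 5 members and not for Serpina1a, where the decreased strains are at 5.17 (KK/HlJ, a mean resting on 1 array at 8.75) and 4.71 (MRL/MpJ).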

How the data were processed

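The deposited values are log2 signal of 21225 probe sets on 27 Mouse Gene 1.0 ST arrays. The submitters' processing notes name affy, without a version; which normalization was applied is not given in the sources used. The values were used as deposited (array medians 6.24 to 6.37). The probe table named 20239 probe sets; Serpina3g was added through its Entrez gene ID in RefSeq, and 985 unnamed probe sets were left out. Computations used R 4.3.3 and limma 3.58.1 (lmFit with 1 mean per strain, eBayes, Benjamini-Hochberg adjustment over 20240 genes), for an F test, 36 strain pairs, each strain against the other 8, and adenoma class on 9 strain means. The scripts were tested on simulated data. Replicates are separate mice, and having 3 arrays per strain limits the precision. Members and gene lists were chosen with earlier results of these data known. Other genes were named by a rule: the 3 most alike and 1 most opposed per member, neighbours on the chromosome, the 4 of each list with the smallest F test p, and any clade A serpin, target protease or acute phase protein. H2-Ea, the Y-linked genes and hepatocyte outlier arrays were looked at after values were seen. Alternatives covered scaling, dim probe sets, all probe sets, trend, array weights, replicate block, minimum difference, joint adjustment, random strain block and leaving out arrays or strains; the hepatocyte settings and the fit without C57L/J were chosen after seeing the data. Promoter sequence is from RefSeq, GRCm38.p6.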

Additional observations from a re-analysis of the deposited data

How the results depend on the processing

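Of 286 alternative values of the main counts, 282 stayed within 1.5 times. These include the adenoma counts, which were 0 in each of 36 fits per comparison without 1 array or strain and are scored as unchanged. For counts of 3 or 4 members 1.5 times is a wide margin, so the share says little about single calls. Pair calls were 58 with no minimum difference and 58 with one of 0.5 (30 at 1), calls against the other 8 were 5 with a minimum difference of 1 (14 with none), and 5 members were called in a pair with both arrays of high hepatocyte signal left out (3 with all arrays), the added ones being Serpina1a and Serpina1c. Leaving out 1 array gave 4 to 5 members passing the F test, 26 to 36 pair calls, 3 to 4 members called in a pair and 12 to 15 calls against the other 8. The fifth was Serpina1c (adjusted p 0.0387 without KK/HlJ replicate 2, range 0.0387 to 0.407).

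With the replicate number as a block, 4 members passed the F test, 3 were called in a pair and 30 pair calls and 13 calls against the other 8 were made; Serpina3g in C57L/J was lost (adjusted p = 0.0509). Same-numbered arrays of different strains correlated at -0.272 to 0.276 in their deviations, with a mean of 0, as had those of different numbers. The labels give them only a shared number, and a batch by number was not tested further. Array weights ended the Serpina1b call in C3H/HeJ (adjusted p = 0.123). Leaving out 1 array also ended calls of Serpina3n in C57BL/6J (without replicate 2), DBA/2J (replicate 2), A/J (replicate 1 or 3) and BALB/cJ (replicate 1), and of Serpina1b in DBA/2J (replicate 1 or 3) and C3H/HeJ (replicate 1 or 2). The cause was not tested.

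Differences between adenoma classes changed sign, none with a call. Without 1 array or strain the frequency difference ranged from -0.917 to 0.158 for Serpina1a, -2.05 to 0.207 for Serpina1b, -0.632 to 0.330 for Serpina1c, -0.0022 to 0.270 for Serpina1d and -0.250 to 0.223 for Serpina3g, which was -0.0241 with both arrays of high hepatocyte signal left out. For severity it ranged from -0.0336 to 0.219 for Serpina1d and -0.0854 to 1.12 for Serpina3n, and for both from -1.63 to 0.0196 for Serpina1c and -0.0722 to 1.13 for Serpina3n. Leaving out dim probe sets removed Serpina1a, Serpina1c and Serpina1d, whose strain means were all below 6.29, the median of all values.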
